A study of Mus musculus with 8 samples.

Results

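The PSD-95 family of scaffold proteins and the Dlgap scaffolds that bind them were followed in mouse cortex with and without Ptbp2. The members were all probe sets annotated to exactly 1 of the gene symbols Dlg1, Dlg2, Dlg3, Dlg4, Dlgap1, Dlgap2, Dlgap3 and Dlgap4, which gave 8 genes of the 21452 named on the array and 264 of its 625534 probe sets. By gene these were 36 for Dlg1, 48 for Dlg2, 31 for Dlg3, 25 for Dlg4, 39 for Dlgap1, 25 for Dlgap2, 19 for Dlgap3 and 41 for Dlgap4. This rule used no measured value, though the members were chosen with earlier results of these data known. Cortical RNA of 8 mice taken at embryonic day 18.5 was used, from 4 wild type and 4 Ptbp2 knockout animals, with 1 exon array for each and a mixed CD1 and C57BL/6 background in both groups. The design text calls the arrays biological replicates. The labels used here name neither the allele, nor the cells in which the gene was lost, nor the litters.

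The 4 Dlg genes encode membrane-associated guanylate kinase scaffolds, with PDZ domains that hold receptors, ion channels and adhesion proteins at the membrane and a guanylate kinase-like domain that binds Dlgap proteins. Dlgap proteins, also called SAPAP or GKAP, in turn bind Shank proteins, so that the chain links glutamate receptors to the deeper postsynaptic density of excitatory synapses. Ptbp2, the neuronal polypyrimidine tract binding protein, represses alternative exons. For Dlg4, which encodes PSD-95, the polypyrimidine tract binding proteins are known to repress inclusion of an exon whose skipping leads to decay of the transcript, which gives the question of whether the level of Dlg4, or the signal of single probe sets in any member, differed without Ptbp2.

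An exon array carries many short probe sets along each gene. The deposited values are log2 signals, so a difference of 1 is a doubling. Probe sets with an 8-array mean of 6.84 or more, the median of all probe set means, were retained, and the median of these gave each gene's value on each array. Of the 264 member probe sets, 233 were retained, between 17 (Dlgap3) and 40 (Dlg2) per gene, and all 8 genes could be tested. The 31 left out had means between 3.20 and 6.83. Signals of different probe sets depend on their own probes, so levels were not ranked between genes. With arrays, precision is limited by how many there are.

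The 8 array medians lay between 6.82 and 6.93. Ptbp2, the targeted gene, fell from 11.20 ± 0.14 to 5.95 ± 0.34 (SD, n = 4 each, limma adjusted p = 1.7e-12), the knockout mean lying below the retention level. Cortical markers were measured in both groups, among them Neurod6 (11.54 in wild type and 11.56 in knockout cortex) and Tbr1 (9.65 and 9.45). On the first 2 principal components of all gene values, wild type 3 and knockout 3 stood apart, so results that rest on them are also given without them.

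Dlg4 was the only 1 of the 8 genes whose groups did not overlap, and it was higher in knockout cortex by a small amount that did not pass the test over all genes. Its values were 11.24, 11.17, 10.87 and 11.19 in wild type 1 to 4 and 11.44, 11.37, 11.31 and 11.36 in knockout 1 to 4. The lowest knockout array lay 0.066 above the highest wild type array, and wild type 3 lay apart below the other wild type arrays. The means were 11.12 ± 0.17 in wild type and 11.37 ± 0.055 in knockout cortex (SD, n = 4 each), with a log2 difference of 0.25 (SE 0.098, 95% interval 0.041 to 0.46, limma adjusted p = 0.72). On a linear scale this is 1.19-fold, with an interval from 1.03 to 1.37. The unadjusted limma p was 0.022, and an exact permutation test (two-sided) gave p = 0.029, the lowest value possible with 4 arrays a group. In bulk tissue, a difference in the number of cells of a type and a difference in RNA per cell cannot be told apart.

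Without wild type 3 the Dlg4 difference was 0.17 (95% interval -0.012 to 0.35, limma adjusted p = 0.74), and without wild type 3 and knockout 3 together it was 0.19 (adjusted p = 0.91). Without knockout 1 it was 0.23, with an interval from -0.012 to 0.46. With the mean of the 23 probe sets in place of their median it was 0.18.

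In all, 0 of the 8 genes passed the limma test, against 0.116% of the 12960 genes tested, and 1, Dlg4, had an unadjusted p under 0.05, as did 6.49% of all genes. Groups without overlap, higher in knockout cortex, occurred in 1.68% of all genes tested. The other 7 genes had differences between -0.17 and -0.030, all below 0, and overlapping groups, where 51.0% of all genes lay above 0, beside a median over all genes of 0.0027.

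**Figure D1:**
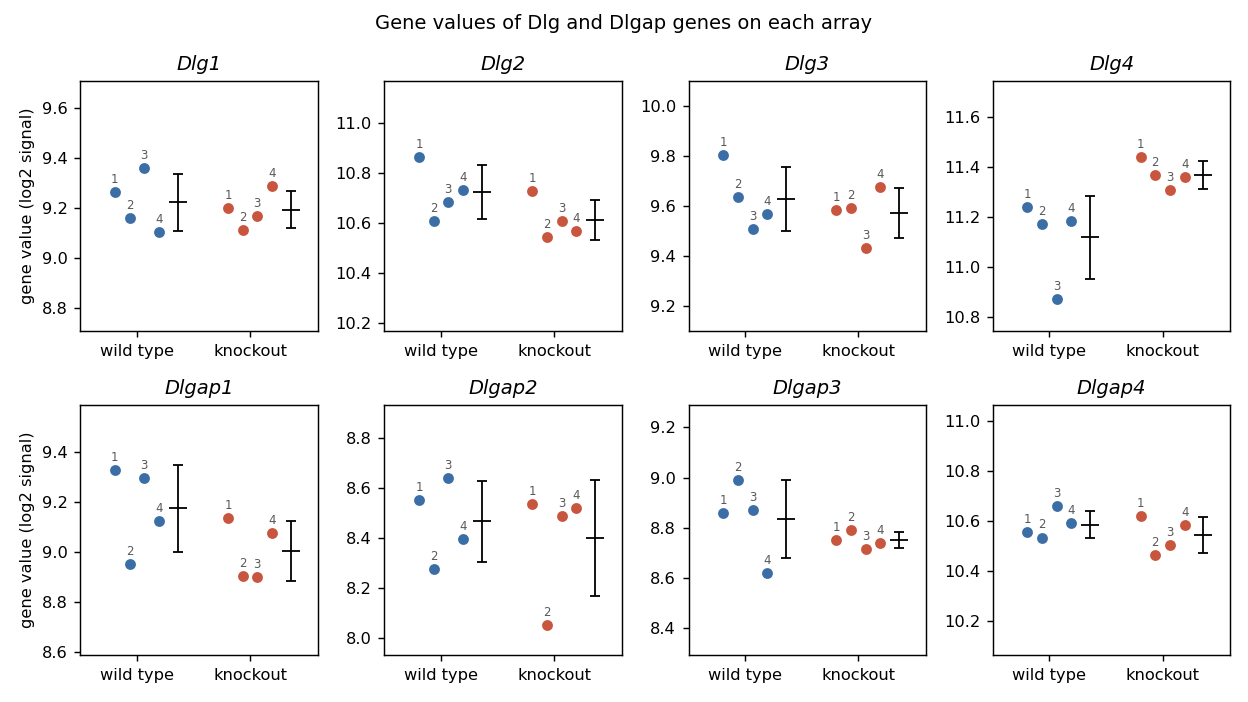
Gene value (log2 signal, the median of the retained probe sets) of the 8 genes on each array, with 4 wild type arrays in blue and 4 Ptbp2 knockout arrays in red, numbered by replicate. Black bars give the mean and SD of each group, and every panel spans 1 log2 unit. For Dlg4 the knockout arrays lie between 11.31 and 11.44, above all 4 wild type arrays, while the groups of the other 7 genes overlap.

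Among the other PSD-95 family members, Dlg2, the gene of PSD-93, had values of 10.86, 10.61, 10.69 and 10.73 in wild type 1 to 4 and 10.73, 10.54, 10.61 and 10.57 in knockout 1 to 4. Knockout 2 and knockout 4 lay below all wild type arrays, and the other 2 lay within the wild type range. The comparison gave a log2 difference of -0.11 (SE 0.092, 95% interval -0.31 to 0.085, limma adjusted p = 0.91). Dlg3, the X-linked gene of SAP102, which is prominent in the developing brain, had values of 9.80, 9.64, 9.51 and 9.57 in wild type 1 to 4 and 9.58, 9.59, 9.43 and 9.68 in knockout 1 to 4. Its groups overlapped, with a log2 difference of -0.058 (SE 0.096, 95% interval -0.26 to 0.15, limma adjusted p = 0.97). Xist, which is expressed from the inactive X chromosome, was high on 2 wild type and 2 knockout arrays, and with the Xist level as a covariate the Dlg3 difference was -0.059. Dlg1, the gene of SAP97, which acts in receptor trafficking and in epithelial polarity, had values of 9.27, 9.16, 9.36 and 9.10 in wild type 1 to 4 and 9.20, 9.11, 9.17 and 9.29 in knockout 1 to 4. The groups overlapped almost fully, with a log2 difference of -0.030 (SE 0.092, 95% interval -0.23 to 0.17, limma adjusted p = 0.98).

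Among the Dlgap genes, Dlgap1 had the largest difference. Its values were 9.33, 8.95, 9.29 and 9.12 in wild type 1 to 4 and 9.13, 8.90, 8.90 and 9.07 in knockout 1 to 4. Knockout 2 and knockout 3 lay below all wild type arrays, and the other 2 lay within the wild type range. The comparison gave a log2 difference of -0.17 (SE 0.10, 95% interval -0.39 to 0.052, limma adjusted p = 0.85). Dlgap2 had values of 8.56, 8.28, 8.64 and 8.40 in wild type 1 to 4 and 8.54, 8.05, 8.49 and 8.52 in knockout 1 to 4. Knockout 2 lay apart below the other 7 arrays, and the groups overlapped, with a log2 difference of -0.067 (SE 0.12, 95% interval -0.32 to 0.19, limma adjusted p = 0.97). Without knockout 2 the difference was 0.049, of the opposite sign.

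Dlgap3 had values of 8.86, 8.99, 8.87 and 8.62 in wild type 1 to 4 and 8.75, 8.79, 8.72 and 8.74 in knockout 1 to 4. The knockout arrays lay close together inside the wild type range, with a log2 difference of -0.084 (SE 0.096, 95% interval -0.29 to 0.12, limma adjusted p = 0.95). The difference was -0.032 without wild type 2 and -0.16 without wild type 4. Dlgap4 had values of 10.56, 10.53, 10.66 and 10.59 in wild type 1 to 4 and 10.62, 10.46, 10.50 and 10.59 in knockout 1 to 4. Its groups overlapped, with a log2 difference of -0.042 (SE 0.087, 95% interval -0.23 to 0.14, limma adjusted p = 0.98). For these 7 genes the 95% intervals ran from 0.76-fold to 1.14-fold on a linear scale, so changes inside that range were not resolved with 4 arrays a group, and a missed threshold does not show that a gene did not change.

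**Figure D2:**
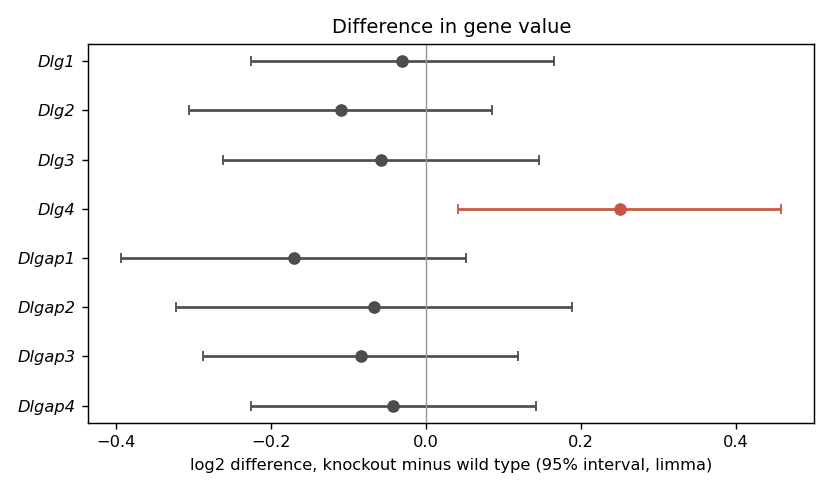
Difference in gene value for the 8 genes, knockout minus wild type in log2 units, as points with 95% intervals from limma (4 arrays a group). The Dlg4 interval, in red, runs from 0.041 to 0.46 and lies above 0 without adjustment over genes, and the other 7 intervals include 0.

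The probe sets of Dlg4 were compared one by one, to ask whether the gene's difference was spread along it. Of the 23 retained, 21 were higher in knockout cortex, beside 55.6% of all retained probe sets and 72 of the 210 retained in the other 7 genes. The 23 probe sets measure the same RNA samples and are not independent of each other, nor of the gene value, which is their median. Their median difference was 0.18, beside 0.023 for all 312767 retained probe sets. Wild type 3 was the lowest of the 8 arrays in 17 of the 23 and knockout 1 the highest in 15.

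In 4 Dlg4 probe sets, or 17.4%, the knockout arrays all lay above the wild type arrays, as in 2.73% of all retained probe sets. As the gene value is the median of the same probe sets, this share is not separate support for its difference. Probe set 4726489 read 11.24, 11.15, 10.80 and 11.19 in wild type 1 to 4 and 11.44, 11.49, 11.36 and 11.32 in knockout 1 to 4, a log2 difference of 0.31. Probe set 4766197 read 11.16, 11.25, 10.97 and 11.26 in wild type 1 to 4 and 11.49, 11.44, 11.50 and 11.42 in knockout 1 to 4, a difference of 0.30. In both, the lowest knockout array stood above wild type arrays that were themselves close together apart from wild type 3. Probe set 5311356 read 11.92, 11.83, 11.78 and 11.77 in wild type 1 to 4 and from 11.95 in knockout 2 to 12.20 in knockout 1, a difference of 0.22. Probe set 4961279 read 11.20, 11.15, 11.04 and 11.08 in wild type 1 to 4 and 11.21, 11.36, 11.27 and 11.36 in knockout 1 to 4, a difference of 0.18, with the groups only just apart. Their limma adjusted p lay between 0.58 and 0.74.

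The largest difference, 0.33, was at probe set 5149850, where the wild type mean of 6.76 lay below the retention level and the groups overlapped. Differences between 0.23 and 0.26 were found at 4403097, 4791927, 5485274, 4904538, 4477146 and 5198100. Differences between 0.13 and 0.20 were found at 4439215, 4564844, 5515996, 5104426, 4625468, 4577383, 5155415, 5112403 and 4313490. The groups overlapped at each of these. The remaining 3 did not share the direction or were near 0. Probe set 5446170 differed by 0.038. Probe set 5207651 read 11.54, 11.60, 11.53 and 11.61 in wild type 1 to 4 and 11.50, 11.61, 11.46 and 11.61 in knockout 1 to 4, a difference of -0.024, with overlapping groups. Probe set 4363939, a dim one, read 7.48, 7.38, 7.47 and 6.74 in wild type 1 to 4 and 7.32, 7.04, 7.09 and 7.14 in knockout 1 to 4, a difference of -0.12. The 2 Dlg4 probe sets left out for low signal, 4781438 and 4401078, differed by 0.44 and 0.11. Which exon each probe set covers was not used here, so the probe set of the repressed Dlg4 exon was not identified. The results of single Dlg4 probe sets therefore cannot answer whether that exon changed.

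**Figure D3:**
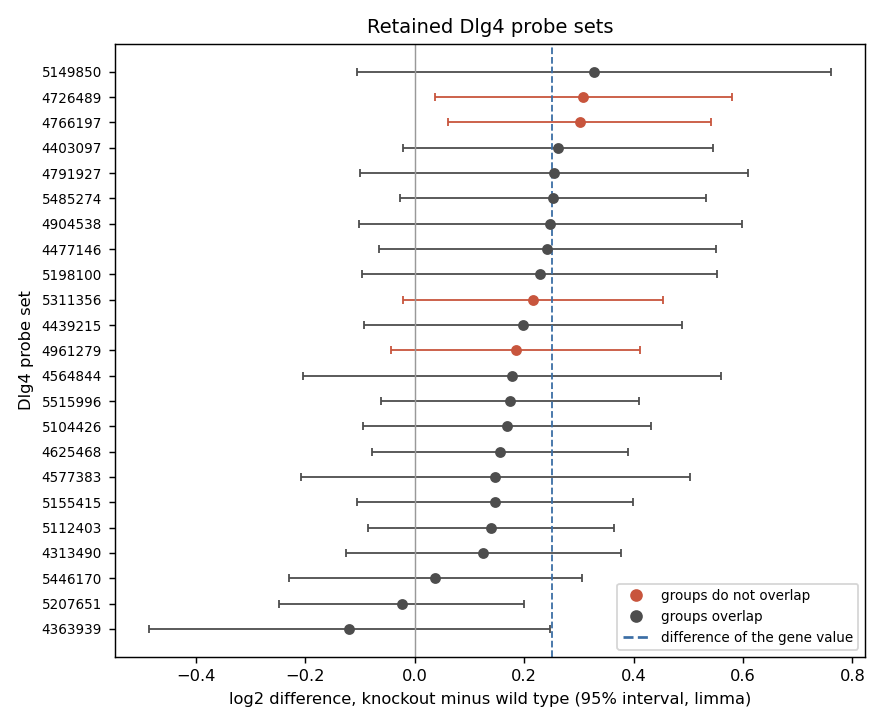
Log2 difference (knockout minus wild type) of the 23 retained Dlg4 probe sets, with 95% intervals from limma, sorted by size, and the dashed line marking the difference of the gene value (0.25). Red marks the 4 probe sets whose groups do not overlap, and 21 of the 23 points lie to the right of 0.

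Over all 8 genes, 0 of the 233 retained member probe sets passed the limma test of probe set level, against 0.0921% of all retained probe sets, and 10 had an unadjusted p under 0.05 (4.29%), beside 7.44% of all. The groups did not overlap in 7 (3.00%), beside 4.24% of all, and both shares were below the background. Outside Dlg4 they were 1 probe set each of Dlg2, Dlg3 and Dlgap4, all lower in knockout cortex, a pattern found in 1.51% of all retained probe sets. Probe set 4901017 of Dlg2 read 10.90, 10.68, 10.77 and 10.87 in wild type 1 to 4 and 10.57, 10.48, 10.47 and 10.33 in knockout 1 to 4. Every knockout array lay below every wild type array, by a mean log2 difference of -0.34 (limma adjusted p = 0.5). Probe set 4513394 of Dlg3 read 9.70, 9.32, 9.35 and 9.28 in wild type 1 to 4 and 9.17, 9.11, 8.83 and 9.20 in knockout 1 to 4. Wild type 1 was high and knockout 3 low, and the difference was -0.34 (limma adjusted p = 0.61). Probe set 5153110 of Dlgap4 differed by -0.15 and was chosen for mention after its values were seen.

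Usage was then compared, that is, each probe set relative to the rest of its gene. A change in an alternative exon could appear there if a retained probe set covered it and the change was large beside the spread between arrays. For an exon whose skipping leads to decay of the transcript, a change need not appear in usage. A probe set that did not pass therefore does not show that its exon was unchanged. The splicing index is the difference between a probe set and its gene value on the same array. It passed the test in 0 of 233 member probe sets, against 0.0107% of the 195619 tested. The unadjusted p was under 0.05 in 14 (6.01%), 9 higher and 5 lower, beside 5.28% of all (2.86% higher and 2.42% lower). With limma's diffSplice, where every probe set is compared with the remaining ones of the gene under 1 variance per gene, 0 passed against 0.216% of all. Here 17 had an unadjusted p under 0.05 (7.30%), beside 4.57% of all. In gene-wise Simes tests 0 of the 8 genes passed, beside 2.48% of all genes. The lowest Simes adjusted p was 0.21, for Dlgap2.

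Dlg4 was the most even of the 8 genes in this respect, with splicing index differences whose SD over its probe sets was 0.10, beside 0.12 (Dlgap3) to 0.22 (Dlgap2) in the others. No test was made of this order. It took no account of signal, where retained means ran from 6.9 to 12.3 in Dlg4 and 7.4 to 9.9 in Dlgap2. In Dlg4, 6 of the 23 lay above 0 and 17 below, beside 51.1% above 0 among all probe sets tested. The gene value that is subtracted differed by 0.25, more than the median probe set difference of 0.18, which places most of them below 0. In signal 21 of the 23 were higher in knockout cortex, so this count does not show a loss of usage along the gene. The lowest differences were at probe set 4363939, at -0.37 (SE 0.19, splicing index adjusted p = 0.92, diffSplice adjusted p = 0.84), and probe set 5207651, at -0.27 (SE 0.098, splicing index adjusted p = 0.92, diffSplice adjusted p = 1.0). Relative to the gene median, 5207651 stood at 0.30, 0.43, 0.66 and 0.43 in wild type 1 to 4 and 0.06, 0.25, 0.15 and 0.25 in knockout 1 to 4, so that its groups did not overlap, while its own signal was level. The highest was 5149850, at 0.077 (SE 0.21, splicing index adjusted p = 0.98, diffSplice adjusted p = 1.0).

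In the other PSD-95 family genes, the highest splicing index differences were at 5205636 of Dlg1, at 0.18, 5422722 of Dlg2, at 0.33, and 5461782 of Dlg3, at 0.27. The lowest in Dlg1 was 5367141, at -0.30, which was -0.11 without knockout 3. In Dlg3 the lowest was 4513394, at -0.28 (SE 0.085, splicing index adjusted p = 0.92, diffSplice adjusted p = 0.91). In Dlg2 it was 4692840, a dim probe set at -0.49 (SE 0.42, splicing index adjusted p = 0.92, diffSplice adjusted p = 0.25). Its signal read 8.48, 6.81, 6.54 and 7.53 in wild type 1 to 4 and 7.14, 7.09, 5.72 and 6.99 in knockout 1 to 4. Knockout 3 lay below and wild type 1 above the other 6 arrays, the groups overlapped, and the knockout mean of 6.74 lay below the retention level. Without wild type 3, diffSplice gave -0.81 (adjusted p = 0.0069), and the splicing index did not pass (adjusted p = 0.92). Without wild type 1 the diffSplice and splicing index differences were -0.24 and -0.16, and without knockout 3 they were -0.23 and -0.16.

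The widest spread was in Dlgap2. Probe set 5134248 had a splicing index difference of 0.54 (SE 0.19, splicing index adjusted p = 0.92, diffSplice adjusted p = 0.41). Its signal read 7.58, 7.55, 7.39 and 7.00 in wild type 1 to 4 and 8.09, 7.71, 8.12 and 7.51 in knockout 1 to 4. Knockout 1 and knockout 3 were high, and knockout 4 lay within the wild type range. Probe set 5122527 had a splicing index difference of -0.57 (SE 0.30, splicing index adjusted p = 0.92, diffSplice adjusted p = 0.15), with signals of 7.96, 7.47, 7.20 and 8.11 in wild type 1 to 4 and 7.86, 6.65, 7.10 and 6.56 in knockout 1 to 4. Knockout 2 and knockout 4 were lowest, knockout 3 lay just below the wild type range and knockout 1 within it. This probe set had the lowest diffSplice p of all members. Its diffSplice adjusted p was 0.022 without wild type 3 and 0.021 without knockout 1, while the splicing index adjusted p was 0.92 and 1.0.

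In Dlgap1, probe set 4728275 had a splicing index difference of 0.53 (SE 0.15, splicing index adjusted p = 0.92, diffSplice adjusted p = 0.52). Relative to the gene median it stood at -1.97, -1.82, -2.16 and -1.97 in wild type 1 to 4 and -1.47, -1.47, -1.05 and -1.82 in knockout 1 to 4. Knockout 4 and wild type 2 were nearest to each other, and the groups were just apart. The lowest was 4333115, at -0.33, where knockout 3 was lowest. In Dlgap4, probe set 5484788 had one of 0.31 (SE 0.097, splicing index adjusted p = 0.92, diffSplice adjusted p = 0.39), with relative values of -0.88, -0.97, -0.77 and -0.62 in wild type 1 to 4 and -0.57, -0.51, -0.39 and -0.55 in knockout 1 to 4, which did not overlap. The lowest was 5552188, at -0.30. In Dlgap3 the extremes were 5143022, at 0.31, and 4472495, at -0.12, and both overlapped. Of all 233, 10 (4.29%) had relative values without overlap, 5 in each direction, beside 2.92% of all probe sets tested (1.64% higher, 1.28% lower).

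**Figure D4:**
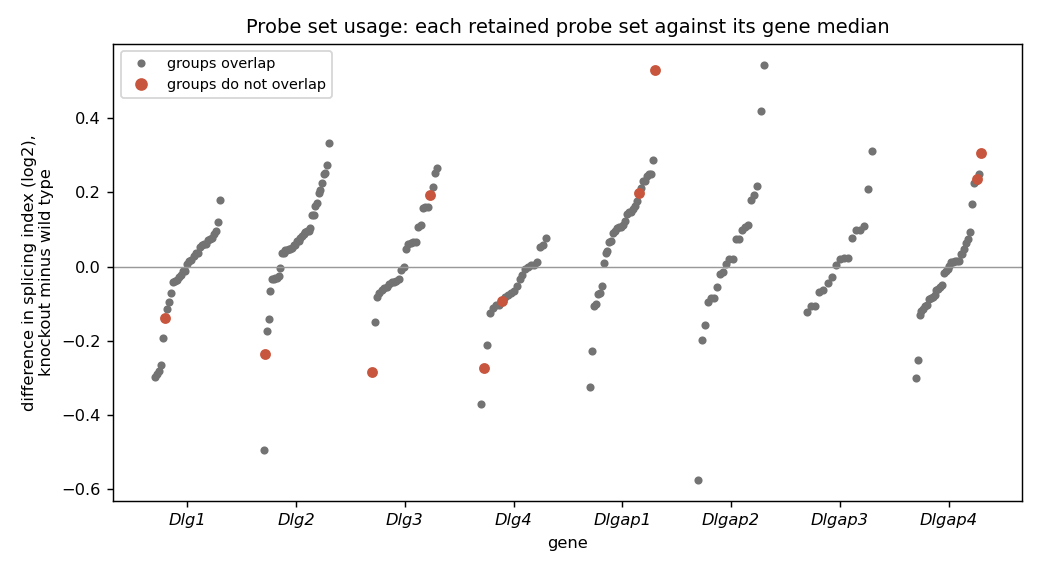
Difference in splicing index (knockout minus wild type, log2) for each of the 233 retained probe sets, sorted within the 8 genes. Red marks the 10 probe sets whose relative values do not overlap between the groups, and Dlg4 spans -0.37 to 0.077, against -0.57 to 0.54 in Dlgap2.

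Genes that act with these scaffolds were compared at gene level, from lists of partners. Of the Shank and Homer scaffolds, which sit below the Dlgap proteins, 0 of 6 passed, and the list median was -0.013. Shank1 differed by -0.21 and Homer1 by 0.070. Of the relatives among membrane-associated guanylate kinases, with Dlgap5, 0 of 14 passed (median -0.010). The polarity protein gene Mpp5 differed by -0.28 and Mpp1 by 0.19. Of the NMDA and AMPA receptor subunits and their auxiliary proteins, among them TARPs, with the kainate receptor subunit Grik2, 0 of 14 passed (median -0.060). Gria3, an AMPA receptor subunit, differed by -0.32, and Cnih2, an auxiliary protein, by -0.20.

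Of the signalling partners in the postsynaptic density, 0 of 19 passed and 4 had an unadjusted p under 0.05, 3 of them lower in knockout cortex, beside 6.49% of all genes in either direction (list median -0.049). Camk2a, a subunit of the abundant kinase of the density, differed by -0.40 (limma adjusted p = 0.23), and Ptk2b, a tyrosine kinase, by -0.33. Camk2b, another subunit of the same kinase as Camk2a, went the other way, by 0.24 with overlapping groups (limma adjusted p = 0.72). Of the adhesion and channel partners, 0 of 13 passed (median -0.067). Kcnj2, an inward rectifier potassium channel, differed by 0.51 with overlapping groups, and Lgi1, a secreted synaptic protein, by -0.18. Of the polarity and transport partners, 0 of 18 passed (median -0.013). Lin7a differed by -0.23 and the kinesin gene Kif1b by -0.14. Of the PTB genes, Ptbp1 differed by 0.0028 and Ptbp3 by 0.088, and neither passed.

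Markers of other cells were set beside the Dlg4 difference. The mean level of 5 tested striatal markers was 9.05 to 9.31 in wild type and 8.49 to 8.83 in knockout cortex. All 5 were lower and 0 of 5 passed the test (Ppp1r1b -0.48, limma adjusted p = 0.085, and Tac1 -0.75, limma adjusted p = 0.095). The unadjusted limma p was under 0.05 in all 5, beside 6.49% of all genes in either direction. Groups were without overlap for Drd1, Penk, Ppp1r1b and Tac1, and overlapped for Drd2. The mean of 2 microglial markers was 7.73 to 7.91 in wild type and 7.96 to 8.16 in knockout cortex, and of 5 oligodendrocyte lineage markers 8.50 to 8.76 in wild type and 8.37 to 8.50 in knockout cortex. The groups did not overlap in these 3 list means, if only just for the oligodendrocyte lineage, where Olig2 alone had groups without overlap. Both microglial genes overlapped on their own (Csf1r 0.056, Cd68 0.35), and Cx3cr1 and Aif1 were not tested. How often list means of other genes are free of overlap was not computed. Of 4 neuronal markers 2 were higher and 2 lower, with overlapping groups for Stmn2 (0.061), Tubb3 (0.047) and Map2 (-0.060). The fourth, Snap25, a vesicle fusion protein gene, fell by the test (log2 difference -0.84, limma adjusted p = 0.0048). The neuronal list mean, which includes Snap25, was 11.90 to 12.17 in wild type and 11.78 to 11.89 in knockout cortex, also without overlap. Snap25 was the only gene of the 4 without overlap on its own, so this mean does not show a fall shared by neuronal markers. The part of these markers in the Dlg4 difference was not tested. The 5 choroid plexus markers ran from 9.04 to 9.09 in wild type and 7.36 to 9.25 in knockout cortex, with knockout 2 far below the rest. The list means overlapped for cortical projection neurons, radial glia, dividing cells, interneurons, astrocytes, vascular and erythroid cells.

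The genes whose values followed each member most closely over the 8 arrays were listed by Pearson correlation, as a description without a test, since arrays share their preparation and the choice was made over 12960 genes. For Dlg4 they were Fbxl15 (0.98), Tmem214 (0.98), Asphd2 (0.98), Taf7 (0.98) and Exoc1 (0.97). For Dlg1 they were Chd9 (0.94) and Vps13b (0.94), for Dlg2 Zfp9 (0.95) and Aggf1 (0.95), and for Dlg3 Wbp4 (0.99) and Dynlt3 (0.98). For Dlgap1 they were Slc1a2 (0.98) and Nwd1 (0.96), for Dlgap2 Arpp21 (0.97) and Coprs (0.96), for Dlgap3 Ppm1h (0.91) and Coro6 (0.89), and for Dlgap4 Mrtfa (0.99) and Bcr (0.96). No other member appeared among them.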

How the data were processed

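The deposited table holds log2 signals per probe set, which the authors made with Affymetrix Expression Console and RMA on the mm9 build, per the submitters' processing notes with no versions named. RMA includes background correction and quantile normalization, which evens out overall brightness and flattens differences among dim probe sets. A platform annotation gave 1 symbol to 303629 of 625534 probe sets, several to 5892 and none to 316013. Older symbols were updated through the RefSeq table of GRCm38.p6, except that 8 probe sets under an older clone name of Dlg2, B230218P12Rik, were kept out of Dlg2.

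A gene needed at least 4 retained probe sets, which left 12960 genes and 195619 probe sets for usage. Gene values, probe sets and the splicing index were fitted in limma 3.58.1 (R 4.3.3; lmFit, then eBayes), usage also with diffSplice, all 8 arrays, no covariate, and Benjamini-Hochberg adjustment over the whole table at 0.05. The scripts were tested on simulated arrays. Alternatives were each array left out, wild type 3 and knockout 3 left out together, the replicate number as a block, other filters, normalizations, array weights, the Xist level, eBayes with trend and robust, a minimum of 1 probe set (2 for usage) and the mean in place of the median. Adding B230218P12Rik to Dlg2 was chosen after seeing the data.

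Named were all member genes, every retained Dlg4 probe set, in each gene the probe sets with the highest and lowest splicing index difference, up to 2 genes per partner list, and the genes most like each member. Other probe sets, Camk2b, and cell markers beyond that rule, were named after their values were seen. The members and lists were chosen with earlier results of these data known. The labels do not say whether the numbers pair the arrays, which were treated as unpaired. The correlations of same-numbered deviations were 0.25, -0.0039, 0.033 and 0.17.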

Additional observations from a re-analysis of the deposited data

Results flagged for a closer look

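In 92 groups of 4 arrays, for the 8 genes and 38 named probe sets, the gap between an extreme array and its nearest neighbour was compared with the range of the group by Dixon's test. 8 groups passed its 95% critical value, where chance gives about 1 in 20, or 4.6 of 92, for groups not picked by their values. Outside Dlg4 the probe sets were picked by their differences on these same arrays, so that number does not strictly apply. Dlgap2 (gene value) stood at 8.05 in knockout 2, against 8.49 to 8.54 in the other 3 arrays of its group. Dlg4 probe set 5149850 stood at 6.57 in wild type 2, against 6.81 to 6.85 in the other 3 arrays of its group. Dlg4 probe set 4477146 stood at 10.81 in wild type 3, against 11.30 to 11.38 in the other 3 arrays of its group. Dlg4 probe set 4363939 stood at 6.74 in wild type 4, against 7.38 to 7.48 in the other 3 arrays of its group. Dlg2 probe set 4692840 stood at 5.72 in knockout 3, against 6.99 to 7.14 in the other 3 arrays of its group. Dlg3 probe set 5461782 stood at 8.27 in wild type 1, against 7.60 to 7.71 in the other 3 arrays of its group. Dlg3 probe set 4513394 stood at 9.70 in wild type 1, against 9.28 to 9.35 in the other 3 arrays of its group. Dlgap1 probe set 4728275 stood at 7.36 in wild type 1, against 7.13 to 7.15 in the other 3 arrays of its group. Of these arrays, wild type 1 appears in 3, and the groups share their arrays, so these are not independent.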

How the results depend on the processing

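In each alternative run for it, 0 member genes, 0 probe sets by level and 0 probe sets by splicing index passed. The number of member probe sets called by diffSplice, 0 with all arrays, ranged from 0 to 2 with 1 array left out, was 1 with no signal filter (Dlgap4 5222191, below the retention level) and 3 with array weights (Dlg2 4692840, Dlgap2 5134248 and 5122527). The Dlg4 difference stayed above 0 in all 20 alternatives, from 0.17 without wild type 3 to 0.29 without wild type 1, with limma adjusted p between 0.27 (array weights) and 1.0 (without knockout 1). With the replicate number as a block it was 0.25 (adjusted p = 0.44), and the block changed no call of a member.

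With 1 array left out, gene level and splicing index differences that kept their sign but moved by over 1.5 times were Dlg2 level (-0.15 to -0.063), Dlgap3 level (-0.16 to -0.032), Dlgap4 level (-0.068 to -0.015), Dlg1 5367141 splicing index (-0.44 to -0.11), Dlg2 4692840 splicing index (-0.75 to -0.16), Dlg4 4363939 splicing index (-0.57 to -0.22), Dlgap1 4333115 splicing index (-0.46 to -0.21), Dlgap2 5122527 splicing index (-0.80 to -0.37) and Dlgap3 4472495 splicing index (-0.22 to -0.046). Several log2 differences of single probe sets moved as far, among them Dlg4 4904538 (0.080 to 0.33) and 4577383 (0.053 to 0.28). So did Dlg4 4791927 (0.10 to 0.36), 4477146 (0.11 to 0.30), 5149850 (0.16 to 0.52), 4564844 (0.086 to 0.31) and 5155415 (0.077 to 0.19).

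Small differences turned sign, and the cause was not tested. Over the same arrays the ranges were Dlg1 level (-0.070 to 0.015), Dlg3 level (-0.098 to 0.00039), Dlgap2 level (-0.13 to 0.049), Dlg4 5149850 splicing index (-0.070 to 0.27), Dlg4 5446170 log2 difference (-0.049 to 0.096) and Dlg4 5207651 log2 difference (-0.046 to 0.0052). Dlg1 was at 0.015 without wild type 3, 0.024 without wild type 3 and knockout 3 and 0.059 under array weights. Dlg3 was at 0.00039 without wild type 1, and 0.030 when the 75th percentile was the filter. Dlgap2 was at 0.049 without knockout 2, 0.060 with that filter and 0.022 with array weights, Dlgap3 at 0.033 with array weights and Dlgap4 at 0.0034 with no filter. In Dlg4, the splicing index of 5149850 was -0.0041 without wild type 2 and -0.070 without knockout 1, and the log2 differences of 5446170, 5207651 and 4363939 were -0.049 without knockout 1, 0.0052 without knockout 3 and 0.14 with array weights.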

Other observations

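The annotation gave 8 further probe sets to B230218P12Rik, a clone name that the RefSeq table lists as a synonym of Dlg2, and 3 were retained. Probe set 5319013 read 6.97, 6.72, 6.59 and 6.29 in wild type 1 to 4 and 7.44, 6.89, 6.82 and 7.06 in knockout 1 to 4, a log2 difference of 0.41 (limma adjusted p = 0.64). The groups overlapped, and 3 wild type arrays lay below the retention level. Probe set 4814484 differed by 0.26 and 5500873 by -0.12. With these 3 added, the Dlg2 difference was -0.085, against -0.11 without them.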
